A study of Mus musculus with 6 samples.

Results

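Hepatic stellate cells isolated at 37 degrees were compared with stellate cells isolated at 6 degrees, both from livers of mice fed a normal diet. There was 1 library for each temperature, and the pair made up 2 of the 6 libraries of the study, which asked what warm handling does to the transcriptome of freshly isolated cells. A gene was called when log2(FPKM + 1) at 37 degrees minus that at 6 degrees was at least 1 or at most -1, which is a 2-fold difference on that scale. FPKM count fragments per kilobase of transcript and are scaled to the depth of the library. Of 24346 symbols listed, 11804 genes reached 1 FPKM in at least 1 library of the pair and could be called, once 1288 small RNA symbols had been removed. At 37 degrees 91 of these genes were at least 2-fold higher (0.771%) and 548 were at least 2-fold lower (4.64%). The 91 held stress genes and no gene of any cell type list, and the 548 held most of the endothelial, macrophage and hepatocyte markers.

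All mice were wild type C57BL/6 animals aged 35 weeks. Liver cells were released by perfusion, cells without CD31 and CD45.2 but with CD49a were sorted, and total RNA was taken up in Trizol. The other 4 libraries came from the tumor region and the non-tumor region of livers of mice fed a high fat diet, again with 1 library at each temperature, and they serve below only to show what the same genes did there. The sources used here do not give the number of animals behind a library, whether livers were pooled or how long each isolation took. Temperature therefore cannot be told apart from any other difference between these 2 preparations, and no value of the pair carries a replicate error or a p-value.

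Stellate cells lie between the sinusoidal endothelium and the hepatocytes, where they store vitamin A as retinyl esters and, after injury, turn into contractile cells that lay down collagen. Their neighbours in the sinusoid are fenestrated endothelial cells, which carry scavenger and Fc receptors, and Kupffer cells, the resident macrophages of the liver. Cells taken out of a tissue switch on immediate early genes, which need no new protein to be transcribed and encode transcription factors, phosphatases and proteins that destroy messenger RNA, while heat shock genes answer to unfolded protein through the factor HSF1.

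The libraries held an estimated 1.92e+07 fragments at 37 degrees and 2.3e+07 at 6 degrees, so a single fragment on 1 kb of transcript stood for 0.0521 and 0.0434 FPKM. A total of 11166 and 11575 genes reached 1 FPKM. The sort genes followed the gate in part. Itga1, which encodes CD49a, was at 90.5 FPKM in the warm and 87.6 FPKM in the cold library. Pecam1, which encodes the excluded CD31, was at 0.90 and 31.4 FPKM, and Ptprc, which encodes the excluded CD45, at 0.397 and 1.75 FPKM. The defining transcripts of excluded endothelial cells were thus plain in the cold library.

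Genes that mark quiescent stellate cells were present at high levels in both libraries. Of 30 such genes, 0 were called in either direction, and their summed level was 36390 FPKM at 37 degrees and 31980 FPKM at 6 degrees. Their differences ran from -0.01 to 0.84 on the log2(FPKM + 1) scale with a median of 0.23, beside a median of 0.02 over all genes that could be called. Lrat, the enzyme that esterifies retinol for storage (GRCm38 chromosome 3, 82892579 to 82903973), was at 494 against 335 FPKM. Desmin (Des), an intermediate filament protein of stellate cells, was at 135 against 111 FPKM. Steap4, a metalloreductase, had the largest difference of the list, with 1126 against 630 FPKM. The list median was 0.21 under median-ratio rescaling and 0.22 under quantile normalization. Rescaling the warm library to the list itself, which sets the list median near 0 by construction, moved the median of all genes to -0.19. Matrix genes (0 of 20 called), contractile genes (0 of 8), ribosomal protein genes (0 of 25) and oxidative phosphorylation genes (0 of 17) were likewise under the threshold, and Col1a1, a fibrillar collagen chain, was at 293 against 389 FPKM.

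**Figure D1:**
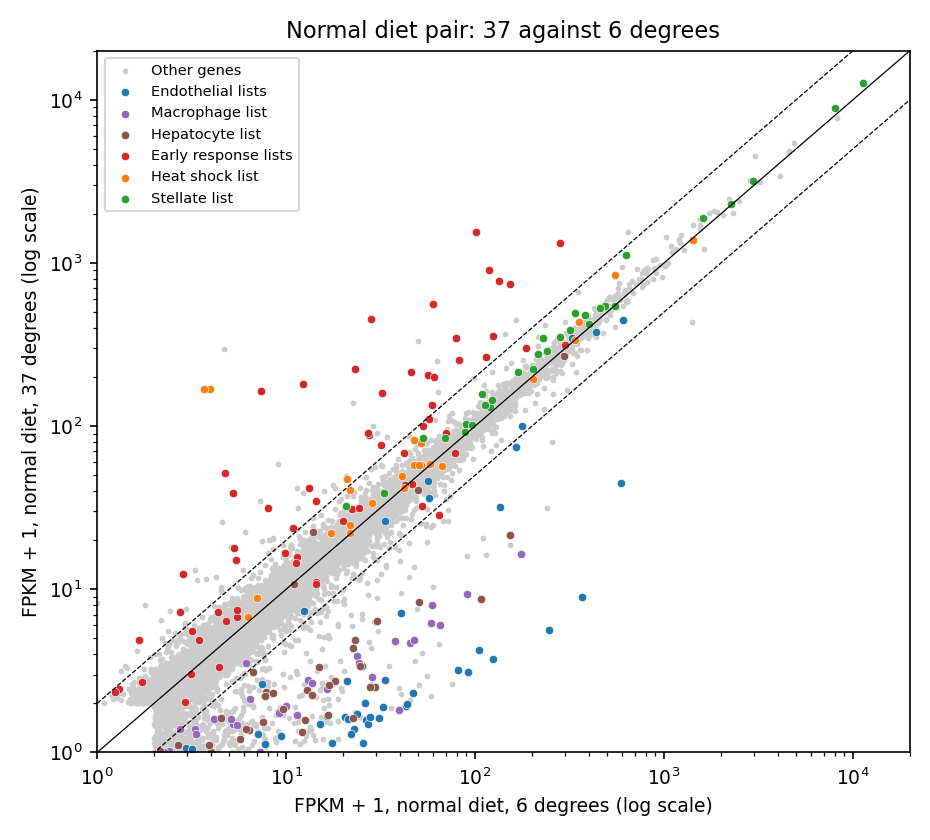
Each point is 1 of 11804 genes, with FPKM + 1 at 6 degrees on the x axis and at 37 degrees on the y axis, both on log scales, in the normal diet libraries. The solid line marks equal values and the dashed lines a 2-fold difference. Stellate markers lie along the solid line, 33 early response genes and 3 heat shock genes, 2 of them by a wide margin, lie above the upper dashed line, and most endothelial, macrophage and hepatocyte markers lie below the lower one.

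The heat shock genes were led by the inducible HSP70 pair. Hspa1a, which encodes an HSP70 chaperone that refolds damaged proteins (chromosome 17, 34969190 to 34972156), was at 167 FPKM at 37 degrees and 2.94 FPKM at 6 degrees. Its neighbour Hspa1b (chromosome 17, 34956436 to 34959238) had 167 FPKM in the warm and 2.67 FPKM in the cold library. The 2 genes are near-identical and Cuffdiff may divide their reads, but their sum, 334 against 5.61 FPKM, does not depend on that. The third heat shock gene past the threshold was the HSP40 co-chaperone gene Dnajb4, at 46.3 against 20.0 FPKM. Its difference of 1.17 became 0.95 when the warm library was rescaled to the stellate list. The other 21 of 24 list members were not called. Among them were Dnajb1, another HSP40 gene, at 39.6 against 20.7 FPKM, and, picked after their values were seen, the constitutive HSP70 gene Hspa8 at 840 against 550 FPKM and the polyubiquitin gene Ubb at 1381 against 1432 FPKM. The list median was 0.26. The HSP70 pair thus stood far above the rest of the list, in which most genes were under the threshold. Of the 24 genes, 20 were on the higher side at 37 degrees and 4 on the lower side.

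Promoters of the heat shock genes were read from RefSeq (GRCm38.p6) because the heat shock element is the known binding site of HSF1. The core GAANNTTC or TTCNNGAA was searched on both strands in the 250 bases before the start. All 3 called genes had it, as did 6 of the 17 matched genes that were not called, beside 12.8% of the 32851 promoters in the table. A gene counted when any of its starts had the core, whereas the share of promoters counts single starts, so the units differ. The 200 bases before the start of Hspa1a, for the HSP70 pair, and of Dnajb4 are shown with the core in capitals. The promoter of Hspa1b differed from that of Hspa1a at 3 of 250 bases.
Hspa1a, chr17:34972157-34972356, minus strand: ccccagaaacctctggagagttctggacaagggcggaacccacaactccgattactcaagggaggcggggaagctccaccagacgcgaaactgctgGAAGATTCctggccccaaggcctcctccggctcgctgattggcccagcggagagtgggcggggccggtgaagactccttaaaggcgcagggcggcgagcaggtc
Dnajb4, chr3:152193846-152194045, minus strand: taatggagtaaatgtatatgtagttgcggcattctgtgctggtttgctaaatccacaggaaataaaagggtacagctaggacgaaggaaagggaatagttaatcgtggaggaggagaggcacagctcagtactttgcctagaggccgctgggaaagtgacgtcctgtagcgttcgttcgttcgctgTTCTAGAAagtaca
The core lay 104 bases before the start of Hspa1a and 14 bases before this start of Dnajb4, which has 2 starts in the table. A match is a description of the letters and not of binding.

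Immediate early transcription factors made up 6 of the 12 highest genes at 37 degrees that reached 10 FPKM. Of 9 AP-1 and MAF genes that could be called, 7 were higher and 0 lower, with a median of 2.29. Fos, a subunit of the AP-1 dimer (chromosome 12, 85473890 to 85477273), was at 1548 FPKM at 37 degrees and 99.7 FPKM at 6 degrees, a 15.5-fold ratio. Its partner Jun was at 775 against 133 FPKM, and Fosb at 50.4 against 3.77 FPKM. Atf3, a stress-induced repressor of the same family (chromosome 1, 191170296 to 191218039), was at 179 against 11.2 FPKM. Of 4 EGR and NR4A genes, 3 were higher, with a list median of 3.06. The orphan receptor gene Nr4a1 (chromosome 15, 101254269 to 101274795) was at 164 against 6.33 FPKM, a 25.9-fold ratio. The zinc finger factors Egr1 and Egr2 were at 561 against 59.2 FPKM and at 38 against 4.24 FPKM. The cold library was not free of these transcripts, as the values of Fos, Jun and Egr1 at 6 degrees show.

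The KLF genes did not move together. Klf2, Klf4 and Klf6, which answer to flow and to growth signals, were higher at 37 degrees, with 213 against 45.0 FPKM for Klf2. Klf10, a TGF-beta-inducible repressor, was lower, at 27.5 against 63.6 FPKM, and the list median over 8 genes was -0.13.

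Among genes that switch early signals off, 2 of 7 DUSP genes and 2 of 7 mRNA decay genes were higher. Dusp1, a phosphatase that inactivates MAP kinases, was at 1318 against 279 FPKM, and Dusp5 was the other called gene, at 22.9 against 9.83 FPKM. The difference of Dusp5, 1.14, became 0.91 with a pseudocount of 5 FPKM and 0.92 when rescaled to the stellate list. Zfp36, which binds AU-rich elements and brings about decay of cytokine messengers (chromosome 7, 28376784 to 28380253), was at 901 against 118 FPKM. Btg2, an anti-proliferative recruiter of deadenylases (chromosome 1, 134075170 to 134079120), was at 221 against 22.1 FPKM, a 10-fold ratio. All 7 mRNA decay genes were on the higher side, with a median of 0.51. Socs3, the feedback inhibitor of IL-6 receptor signalling, was at 329 against 49.1 FPKM, and Nfkbiz, an inducible nuclear IkB protein, at 57.5 against 8.09 FPKM.

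Of 29 other immediate early genes, 16 were higher and 0 lower, with a median of 1.22. The matricellular gene Cyr61, which binds integrins, was at 455 FPKM at 37 degrees and 27.3 FPKM at 6 degrees. Its relative Ctgf was at 205 against 55.6 FPKM. Bhlhe40, a repressor tied to the circadian clock, was at 159 against 31.2 FPKM, Ier2 at 348 against 78.4 FPKM and the salt-inducible kinase gene Sik1 at 11.3 against 1.84 FPKM. Over the 6 lists of early response genes, 33 genes were thus higher and only Klf10 was lower.

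The cyclic AMP response element core, ACGTCA or TGACGT, is the known binding site of CREB and was searched in the same way. It stood in the promoters of 7 of the 23 matched early response genes that were higher (Fos, Atf3, Egr2, Dusp1, Dusp5, Btg2 and Cyr61) and of 11 of the 26 matched genes that were not, beside 6.47% of all promoters. The CArG box bound by SRF was found in 3 of 23 (Egr2, Dusp5 and Zfp36) and in 1 of 26, beside 1.47% of all. Fos and Btg2 are shown as examples, with the core in capitals. In Btg2 the capitals are 2 overlapping matches, one on each strand.
Fos, chr12:85473690-85473889, plus strand: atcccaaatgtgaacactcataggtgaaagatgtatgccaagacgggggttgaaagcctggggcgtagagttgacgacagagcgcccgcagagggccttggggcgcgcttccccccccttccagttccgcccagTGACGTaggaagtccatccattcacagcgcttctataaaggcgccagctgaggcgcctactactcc
Btg2, chr1:134079156-134079355, minus strand: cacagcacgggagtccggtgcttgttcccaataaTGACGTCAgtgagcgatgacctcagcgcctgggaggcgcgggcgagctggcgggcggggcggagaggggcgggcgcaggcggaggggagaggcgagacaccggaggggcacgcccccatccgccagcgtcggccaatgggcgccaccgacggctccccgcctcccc
The share with the core was 30.4% in the genes that were higher and 42.3% in those that were not. For both motifs a gene counted when any of its starts matched, while the shares of all promoters count single starts. The shares of genes and of promoters are therefore not like for like.

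Inflammatory genes split. Of 24 NF-kB targets and cytokine genes, 4 were higher (Socs3, Nfkbiz, Cxcl1 and Ccl7) and 2 lower (Il1a and Il1b), with a median of 0.12. The neutrophil chemokine gene Cxcl1 was at 137 against 21.7 FPKM. The cytokine gene Il6 was at 1.01 against 0.0883 FPKM, too low for a call on the scale with a pseudocount of 1. Il1a, a cytokine released by damaged cells, went the other way, at 1.53 FPKM at 37 degrees and 26.7 FPKM at 6 degrees. Macrophage markers differed in the same direction as Il1a and Il1b, with a list median of -2.39, and their part in these values was not tested. Of the integrated stress response, 2 of 11 genes were higher: Ppp1r15a, the phosphatase subunit that restarts translation, at 250 against 61.5 FPKM, and Ddit4, an inhibitor of mTORC1, at 3.19 against 0.628 FPKM. With a pseudocount of 5 FPKM the difference of Ddit4 went from 1.36 to 0.54. The zinc-binding metallothionein genes Mt1 and Mt2 were at 1547 against 643 FPKM and 369 against 142 FPKM. The growth factor gene Ereg, a ligand of the EGF receptor, was at 10.4 against 2.39 FPKM.

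Other stress programmes had few calls or none. Of 15 unfolded protein response genes, 9 NRF2 targets and 14 hypoxia and glycolysis genes, 0 were called, with medians of -0.04, -0.11 and 0.02. Of 10 p53 targets 1 was called, the death receptor gene Fas, which was lower at 4.24 against 15.7 FPKM. Cirbp and Rbm3, whose RNA-binding products cells make in the cold, were at 60.9 against 80.1 FPKM and 198 against 175 FPKM. The nuclear long RNA Malat1 was at 448 against 163 FPKM and was the 1 called gene of 3 such RNAs.

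**Figure D2:**
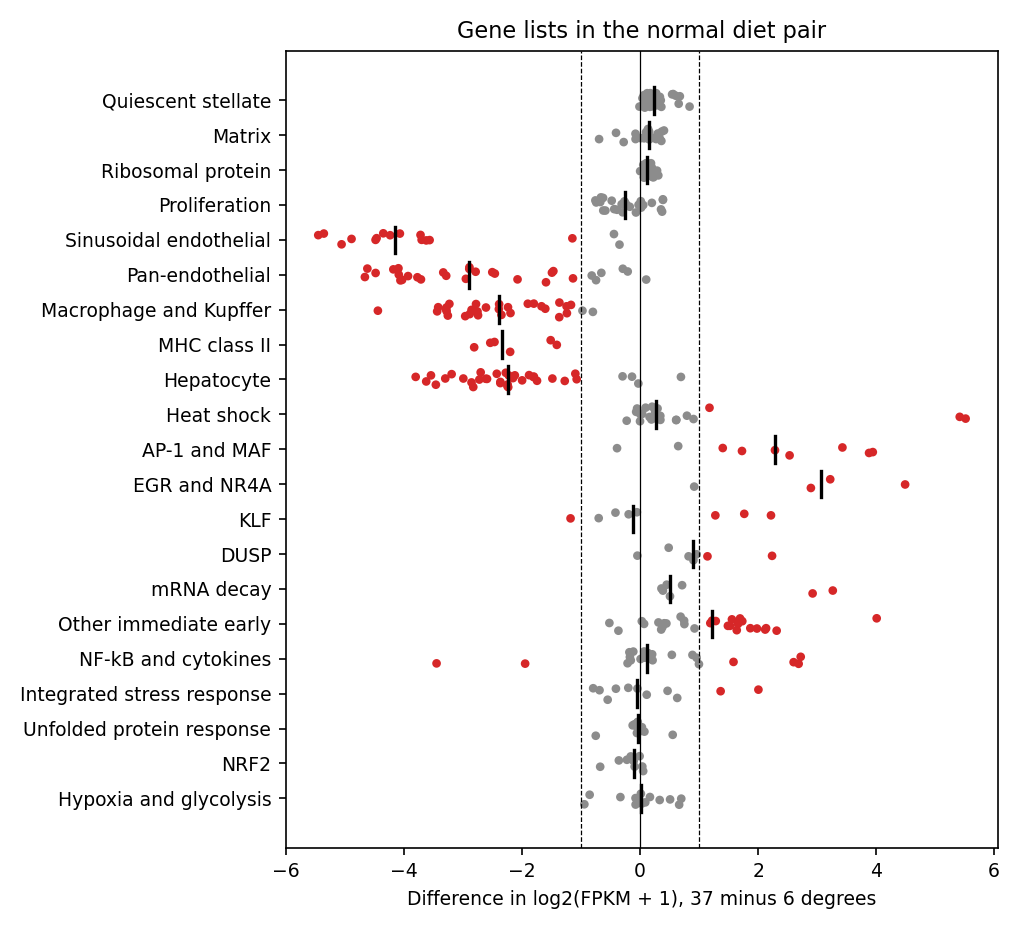
Each point is a gene of the list named on the y axis, and the x axis gives its difference in log2(FPKM + 1), 37 minus 6 degrees, in the normal diet pair. Black bars are list medians, red points are past the dashed thresholds of 1 and -1. The AP-1 and EGR lists sit to the right, the endothelial, macrophage, MHC class II and hepatocyte lists to the left, and the unfolded protein response and NRF2 lists at the centre.

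The genes furthest below the threshold at 37 degrees were mostly endothelial. Of 16 sinusoidal endothelial markers 14 were lower, with a median of -4.16, and of 30 general endothelial genes 24 were lower, with a median of -2.90. Fcgr2b, the Fc receptor with which these cells clear immune complexes (chromosome 1, 170958617 to 170976547), was at 4.60 FPKM at 37 degrees and 245 FPKM at 6 degrees. Gpihbp1, which anchors lipoprotein lipase to the vessel wall (chromosome 15, 75596628 to 75599481), was at 7.98 against 368 FPKM. The nuclease gene Dnase1l3 was at 2.72 against 123 FPKM and Oit3 at 2.1 against 91.0 FPKM. Kdr, the VEGF receptor 2 (chromosome 5, 75932827 to 75978458), was at 2.2 against 80.2 FPKM, the water channel gene Aqp1 at 3.27 against 104 FPKM and the hyaluronan scavenger receptor gene Stab2 at 1.30 against 46.1 FPKM. Lyve1, a hyaluronan receptor, was at 0.136 against 24.4 FPKM. In these bulk libraries, fewer cells of a type and less RNA per cell cannot be told apart.

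The endothelial markers left uncalled were high in both libraries. Picked after their values were seen, Ehd3, a membrane trafficking gene, was at 446 against 607 FPKM, the TGF-beta co-receptor gene Eng at 378 against 438 FPKM and the R-spondin gene Rspo3 at 348 against 324 FPKM. The summed level of the sinusoidal list, 540 FPKM at 37 degrees and 2306 FPKM at 6 degrees, therefore held mostly Ehd3 in the warm library. Among the 15 sinusoidal genes that reached 10 FPKM in either library, the median ratio of cold to warm was 40.8, with quartiles of 21.5 and 45.7.

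Macrophage and Kupffer cell transcripts were lower by a smaller factor. Of 31 such genes 29 were lower and 0 higher, with a median of -2.39. Lyz2, the lysozyme of myeloid cells (chromosome 10, 117277331 to 117282321), was at 15.4 FPKM at 37 degrees and 175 FPKM at 6 degrees. C1qc, a chain of complement C1q, was at 5.04 against 64.5 FPKM, the complement receptor gene Vsig4 at 1.91 against 27.5 FPKM and the Kupffer cell lectin gene Clec4f at 5.25 against 57.8 FPKM. Over the 16 genes that reached 10 FPKM, the median ratio of cold to warm was 10.9, with quartiles of 8.97 and 12.2. Msr1 lay outside this range, at 0.819 against 38.6 FPKM, a ratio of 47.2 like that of Fcgr2b (53.2). It encodes a scavenger receptor of macrophages that sinusoidal endothelial cells are also known to carry. All 6 MHC class II genes that could be called were lower, and Cd74, the invariant chain, was at 15.2 against 113 FPKM. The summed macrophage level was 75.1 FPKM at 37 degrees and 801 FPKM at 6 degrees, and Cx3cr1, Ly86 and Ms4a7 were listed at 0 in the warm library.

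Hepatocyte transcripts were lower too, but not uniformly. Of 36 such genes 32 were lower and 0 higher, with a median of -2.25. The betaine methyltransferase gene Bhmt (chromosome 13, 93616675 to 93637961) was at 0.626 FPKM at 37 degrees and 21.7 FPKM at 6 degrees. Fabp1, the fatty acid binding protein of liver cells, was at 7.70 against 106 FPKM, and Alb, the albumin gene (chromosome 5, 90460897 to 90476602), at 5.39 against 29.3 FPKM. The median ratio of cold to warm over 21 genes that reached 10 FPKM was 9.83, with quartiles of 5.94 and 17.6. Picked after their values were seen, Trf and Vtn, which encode the plasma proteins transferrin and vitronectin, were at 266 against 293 FPKM and 21.4 against 12.9 FPKM. Summed over the list the level was 410 FPKM at 37 degrees and 1025 FPKM at 6 degrees, of which Trf was the largest part.

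Other cell types gave few calls. The markers of neutrophils (11 genes), B cells (8) and cholangiocytes (11) were all under 1 FPKM in both libraries. Of 14 T and NK cell genes only Lck reached 1 FPKM, at 0.904 against 1.28 FPKM. Portal fibroblast and smooth muscle genes summed to 50.9 FPKM at 37 degrees and 43.6 FPKM at 6 degrees with 0 of 6 called, and the smooth muscle myosin gene Myh11 was at 13.3 against 7.71 FPKM. Of 7 dendritic cell genes only Zbtb46 reached 1 FPKM, and it was lower, at 14.2 against 29.3 FPKM. Of 2 mesothelial genes that could be called, Gpm6a was lower, at 0.0169 against 1.27 FPKM. The other, Wt1, was on the higher side, at 4.54 against 2.94 FPKM, and was not called. The platelet-associated genes Pf4 and Itga2b were at similar levels in both, 65.4 against 66.8 FPKM and 30.0 against 25.7 FPKM. The globin genes Hba-a1 and Hba-a2, near-identical copies, were listed at 0 in the warm library, with Hba-a1 at 1.34 FPKM in the cold one.

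**Figure D3:**
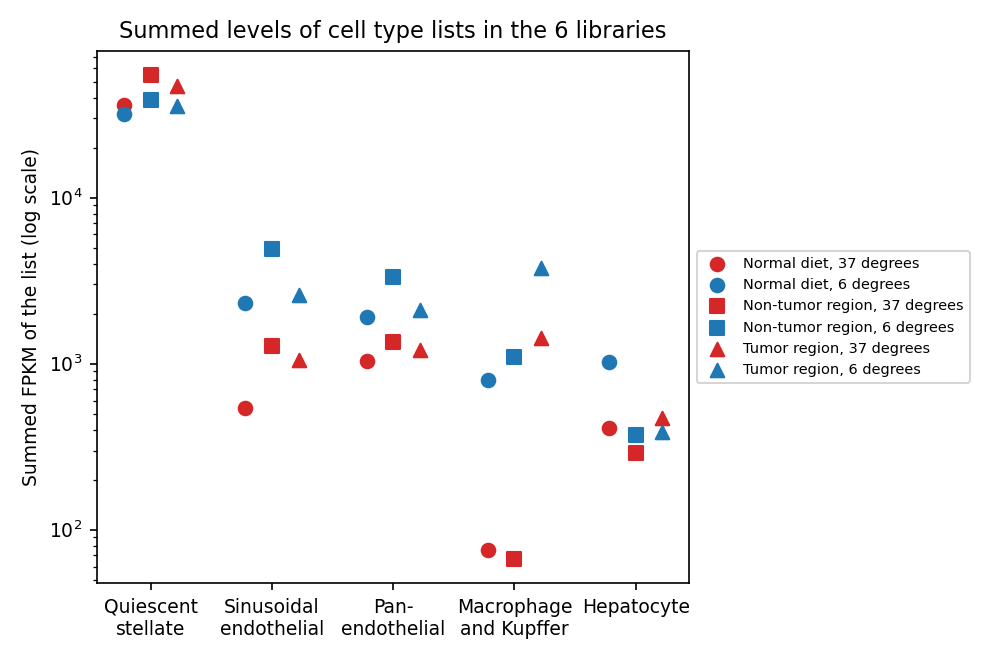
The y axis gives the summed FPKM of each cell type list on a log scale in all 6 libraries, red for 37 and blue for 6 degrees, with 1 symbol for each liver source. In the normal diet pair (circles) the stellate sum is alike at 36390 and 31980 FPKM, while the macrophage sum is 75.1 FPKM at 37 degrees and 801 FPKM at 6 degrees. The hepatocyte sum of the cold normal diet library, 1025 FPKM, is above the other 5.

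Set against the background, the 2 directions held different kinds of listed gene. The lists were chosen with earlier results of these data known, which can raise the shares below, so they are a description only. Stress lists made up 1.51% of the genes that could be called, 49.5% of the 91 higher genes (45 genes) and 0.730% of the 548 lower ones (4 genes: Klf10, Il1a, Il1b and Fas). Cell type lists made up 1.33% of the genes that could be called, 0 of the 91 and 18.8% of the 548 (103 genes). In no list were 45 of the higher and 435 of the lower genes.

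Genes outside the lists had differences nearly as large. Lowest at 37 degrees were Fabp4, a fatty acid carrier of capillary endothelium, at 1.63 against 74.5 FPKM, the receptor gene Cd300lg at 1.21 against 57.6 FPKM, the complement regulator gene Cd55 at 1.09 against 44.0 FPKM and the fatty acid translocase gene Cd36 at 0.876 against 34.9 FPKM. Pde2a, Gimap6, Fam167b and Dpp4 completed the lowest 8, with differences from -4.15 to -4.27. Highest, apart from Rps27, were the TNF family ligand gene Tnfsf9 at 24.8 against 3.56 FPKM, the RNA-binding protein gene Khdrbs3 at 33.8 against 6.24 FPKM and the hyaluronan-binding protein gene Tnfaip6 at 12.2 against 2.28 FPKM. Thbs1, a matricellular activator of TGF-beta, was at 40.7 against 10.4 FPKM, and the aggrecanase gene Adamts4 at 17.1 against 4.12 FPKM. Gm12505 and Rasl11a completed the highest 8. Rps27 had the largest difference of all, 295 against 3.67 FPKM, but its near-identical copy Rps27rt was at 1207 against 1278 FPKM and their sum at 1503 against 1282 FPKM, so the division of reads between copies is uncertain.

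Among genes reaching 10 FPKM, the calls nearest to the threshold on the higher side were Rdh10 (difference of 1.04), Nfix (1.05), Rrad (1.06), Dusp5 (1.14) and AW011738 (1.15). Just outside it were Bcr and Fam120a (0.97 and 0.98), Dusp6 and Cxcl10 (both 0.96) and Ccl2, at 196 against 98.0 FPKM. On the lower side Zbtb46, Adam23, Adgrl2, Smap2 and Acer2 were just inside (down to -1.03 for Acer2), and Nr1d1, Cpne2, Cav2, Lims2 and Scd1 just outside (-0.98 to -0.99).

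The same genes were then read in the 4 high fat diet libraries, which share no sample with the normal diet pair. In the non-tumor pair 31 genes were at least 2-fold higher (0.267% of those that could be called) and 708 lower (6.1%), and in the tumor pair 257 higher (2.16%) and 569 lower (4.77%). A limma fit over these 4 libraries, with source and temperature as terms and 1 residual degree of freedom, gave 34 genes higher (0.294%) and 374 lower (3.24%) at an adjusted p under 0.05.

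Of the 45 stress genes, 2 were at least 2-fold higher in the non-tumor pair (Hspa1a and Hspa1b) and 41 in the tumor pair. Their median difference was 1.98 in the normal diet, 0.37 in the non-tumor and 2.52 in the tumor pair. Fos was at 429 against 236 FPKM in the non-tumor pair and at 4114 against 265 FPKM in the tumor pair. Egr2 was at 21.5 against 46.2 FPKM and at 286 against 39.8 FPKM. Hspa1a was at 119 against 4.01 FPKM and at 58.9 against 5.85 FPKM, so that the HSP70 gene and the early genes did not order the 3 warm libraries alike. The warm tumor library was above the warm normal diet library for 41 of the 45 genes. The cold normal diet library was the lowest of the 3 cold ones for 40 of them, a standing that their choice favours. Over all 178 stress genes that could be called, whatever their difference, it was the lowest for 125 (70.2%), beside 4960 of all 11804 genes. By limma over the high fat diet pairs 2 of the 45 passed as higher. They were Hspa1a, by 3.85 ± 0.36 (SE, adjusted p = 0.0276), and the Notch target Hes1 (adjusted p = 0.0427). Hes1 was at 266 against 114 FPKM in the normal diet pair. Hspa1b, the near-identical copy of Hspa1a, did not pass, at 3.57 ± 0.73 (SE, adjusted p = 0.0903). Reads may be divided between these 2 copies.

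The lower genes differed by cell type in what they did in the other pairs. All 38 endothelial genes called in the normal diet pair were at least 2-fold lower in the non-tumor pair and 36 in the tumor pair, and the medians of the normal diet, non-tumor and tumor pairs were -3.75, -2.89 and -2.11. By limma 33 of the 37 tested passed as lower in the high fat diet pairs, beside 3.24% of all genes. Fcgr2b had a log2 change of -2.71 (adjusted p = 0.0257). Of 29 macrophage genes 22 were lower in both high fat diet pairs, with medians of -2.61, -3.28 and -1.47. By limma 9 of 27 tested passed as lower. Of 32 hepatocyte genes 0 were lower in both, 12 in the non-tumor pair alone and 20 in neither, with medians of -2.32, -0.80 and 0.27, and 0 of 28 tested passed by limma. Albumin was at 6.01 against 13.7 FPKM in the non-tumor and 26.6 against 19.4 FPKM in the tumor libraries. The summed hepatocyte level of the cold normal diet library, 1025 FPKM, stood above the 288 to 471 FPKM of the other 5.

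Of the 435 lower genes in no list, 219 were lower in both high fat diet pairs and 115 in neither. By limma 190 of 371 tested passed as lower. Over all 548 lower genes, 400 were also lower in the non-tumor pair, which is 73.0% of the 548 and 56.5% of that pair's 708. In the tumor pair 290 were lower, which is 52.9% of the 548 and 51.0% of that pair's 569.

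**Figure D4:**
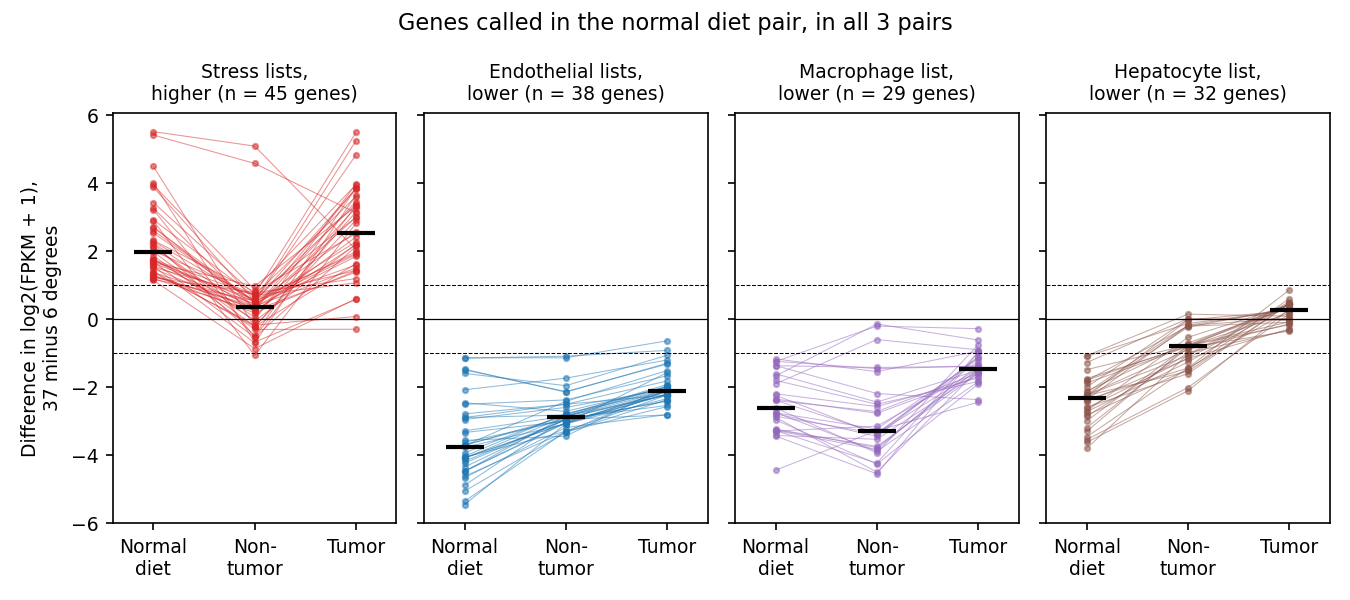
Each thin line is a gene called in the normal diet pair, and the y axis gives its difference in log2(FPKM + 1), 37 minus 6 degrees, in the normal diet, non-tumor and tumor pairs; black bars are medians and dashed lines the thresholds. Stress genes have medians of 1.98, 0.37 and 2.52, endothelial genes stay below 0 in all 3 pairs, and hepatocyte genes go from -2.32 to 0.27.

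Whether the temperature difference of the normal diet pair departed from that of the high fat diet pairs was tested in all 6 libraries with an interaction term in limma, again with 1 residual degree of freedom. Of 11556 genes tested 0 passed (0%), with 279 more positive and 322 more negative at a p under 0.05 before adjustment and a smallest adjusted p of 0.557. That smallest value belonged to Ctgf, whose difference was 1.87 in the normal diet pair and -0.30 in both others. Fcgr2b was also among the 10 smallest, with -5.46 against -3.08 and -2.34. The residual degree of freedom comes from the high fat diet pairs alone, so this design has little power. Without the filter on low values, 117 genes passed as higher and 95 as lower. A departure of the normal diet pair was thus not shown for any gene under the filter used here, which does not show that the pairs were alike.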

How the data were processed

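The authors deposited FPKM per gene symbol in a file for each library, made with TopHat2 2.1.1, Bowtie2 and Cuffdiff 2.2.1 on mm10, per the submitters' processing notes. The sources used here give no settings, annotation or use of strand, so overlapping genes and near-identical copies are uncertain. Entries that shared a symbol were summed. Depth was estimated from the step size of low values. Differences were taken on log2(FPKM + 1), which understates low genes, and called at 1 among genes reaching 1 FPKM in either library. Fits used limma 3.58.1 in R 4.3.3 with an intensity trend and Benjamini-Hochberg adjustment over the 11556 genes averaging at least 1 FPKM, and were checked on simulated data. With 1 residual degree of freedom (4.46 and 4.55 with the prior), p-values measure only departures among these libraries.

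The members and the 39 gene lists (14 of cell types, 15 of stress and 10 others) were chosen with earlier results of these data known. Named genes were the 12 highest and 12 lowest with at least 10 FPKM, the sort genes, up to 4 members per list plus fixed members, the 8 highest and lowest outside the lists, the 5 nearest to each side of the threshold, and the 10 smallest p of the interaction. Others were picked after their values were seen. Coordinates are from GENCODE M21 (GRCm38) and promoters from RefSeq. Alternatives were other pseudocounts, filters and thresholds, 3 rescalings and a fit without the trend. Not every gene chosen by the naming rule is reported here.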

Additional observations from a re-analysis of the deposited data

How the results depend on the processing

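In the normal diet pair, a pseudocount of 0.1 FPKM gave 159 higher genes, one of 5 FPKM gave 217 lower genes, a filter of 5 FPKM gave 291 lower genes, and a threshold of 1.5 gave 48 higher and 334 lower. With pseudocounts of 0.1 and 5 FPKM the list medians were -5.10 and -2.57 for sinusoidal endothelial, -4.15 and -1.87 for general endothelial, -3.23 and -1.34 for macrophage, and -3.20 and -1.29 for hepatocyte genes. Larger pseudocounts shrink low values by construction. Over the pseudocounts and rescalings run, stress genes counted 41 to 52 among the higher and cell type genes 73 to 105 among the lower, with 0 cell type genes higher. The share of higher genes among those called ran from 10.5% (rescaled to the stellate list) to 22.2% (pseudocount of 5 FPKM), against 14.2%. No list median and no named gene past the threshold changed sign. A changed pseudocount cannot change a sign, so this says little, and the other called genes were not read for it. The fit of the 2 high fat diet pairs gave 10 higher and 163 lower with a pseudocount of 0.1 FPKM, 7 and 94 for genes averaging at least 5 FPKM, 9 higher without the trend, and 0 and 0 without the filter (923 and 1412 unadjusted); the cause was not tested. Without the filter the interaction gave 117 higher and 95 lower (smallest adjusted p = 0.0447). No fit with replicate numbers as a block was possible because the labels give none; liver source, which pairs warm with cold, was a term of both fits. With 1 library in each group, none could be left out. At 0.0434 to 0.0521 FPKM per fragment on 1 kb, values under 1 FPKM rest on few fragments.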

Other observations

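The patterns below were picked after their values were seen. Lower genes in no list were grouped into families by symbol alone, so the members of a family need not share a function. At 37 degrees 6 of 11 Serpina, 3 of 3 Mup and 13 of 31 Cyp genes were lower and 0 higher. Of all 11804 genes 4.64% were lower. Of the Serpina, Mup and Cyp genes called, 5, 2 and 10 were lower in neither high fat diet pair. Of all 435 lower genes in no list, 115 were lower in neither. In other families, 6 of 12 Apo, 2 of 5 Ugt and 1 of 4 Ms4a genes were lower and 0 higher. Of 16 histone genes 0 were lower and 1 was higher. The GTPase family Gimap had 4 of 6 genes lower and the lectin family Clec 4 of 8, and all of these were also lower in both high fat diet pairs. Of 44 genes with a Cd symbol, 18 were lower, 16 of them in both high fat diet pairs. Among all 435 lower genes in no list, 219 (50.3%) were lower in both. The drug metabolism gene Cyp4b1 was at 30.5 FPKM at 37 degrees and 240 FPKM at 6 degrees.

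Cyr61, Ctgf, Thbs1 and Amotl2, which are known targets of the YAP coactivator, were lowest of all 6 libraries in the cold normal diet library. Other targets of YAP are not given here, and a part of YAP was not tested. Cyr61, Ctgf and Thbs1 are among the 91 higher genes, a choice that favours this standing. Among the 3 cold libraries alone, the cold normal diet library was the lowest for 79 of these 91 genes. Over all 11804 genes it was the lowest for 4960. Ctgf was at 55.6 FPKM there, 205 FPKM in the warm normal diet library and 279 to 429 FPKM in the 4 high fat diet libraries. Thbs1 was at 10.4, 40.7 and 69.2 to 162 FPKM. Cyr61 was at 27.3, 455 and 274 to 709 FPKM. Amotl2 was at 11.6, 21.4 and 15.1 to 28.7 FPKM, and its difference in the normal diet pair, 0.82, was under the threshold.

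Proliferation genes (0 of 26 called, median -0.26) differed less than 2-fold in the pair. The mitotic genes Ccnb2, Birc5 and Ube2c were at 26.0 against 44.7 FPKM, 23.9 against 40.7 FPKM and 27.9 against 45.1 FPKM. In the 4 high fat diet libraries Ccnb2 was between 2.2 and 11.2 FPKM, below both normal diet libraries.

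The interaction ranked several other genes among its 10 smallest p without passing (adjusted p = 0.61). Klf15, a glucocorticoid-responsive factor, was at 31.3 against 51.5 FPKM in the normal diet pair, at 27.7 against 13.7 FPKM in the non-tumor pair and at 29.8 against 13.4 FPKM in the tumor pair. Its 3 warm values were close, and its cold values were not. The neutrophil gene S100a8 was at 0.523 against 0.217 FPKM in the normal diet pair, listed at 0 against 7.01 FPKM in the non-tumor pair and at 3.66 against 33.6 FPKM in the tumor pair. Amd2, a near-identical copy of Amd1, was not among these 10 genes. In the normal diet pair it was at 0.167 against 11.4 FPKM, while the sum of both copies was 46.8 against 45.7 FPKM.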
